A study of Homo sapiens with 27 samples.

Results

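Alpha-2-macroglobulin, a related macroglobulin and 7 serpins were followed across 2 cell lines of invasive lobular carcinoma (ILC) and their long-term estrogen-deprived (LTED) variants. The 9 genes were A2M, A2ML1, SERPINA1, SERPINA3, SERPINA5, SERPINA6, SERPINE2, SERPINB5 and SERPINI1, out of 60619 genes with a row of counts. They were selected on earlier results of these same data, with their levels in all groups known. Their levels and differences are therefore given as a description, without a test.

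Serpins are inhibitors that a target protease cleaves and is then trapped by, in a changed shape from which it cannot escape. Some serpins have lost this activity and carry hormones or act in other ways. A2M inhibits proteases of every class by closing a molecular cage around them. Many of these proteins are made by the liver and secreted into plasma, where several rise in the acute-phase response to inflammation, and SERPINA1 and SERPINA3 are also found in estrogen receptor (ER)-positive breast cancer cells.

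MM134 (MDA-MB-134VI) and SUM44 are human ILC cell lines that express ER. RNA-Seq libraries were made from 3 wells of each of 9 cultures. These were MM134 parental cells and 4 LTED variants (A, B, D and E), the parental cultures SUM44F and SUM44PE, and 2 SUM44 LTED variants (A and B). The LTED variants had emerged independently from parental cells kept without estrogen and were grown in charcoal-stripped serum. Parental cells were hormone-deprived before collection, so the LTED variants and their parental cultures were harvested without added estrogen. The study does not say separately how SUM44PE was harvested. SUM44F is the SUM44PE line adapted to medium with fetal bovine serum and is the parental culture of the SUM44 variants. SUM44PE was not compared with LTED cells in the study and is shown beside SUM44F only. The wells are repeats of 1 culture, so that spreads and p-values measure differences between wells and not between separate derivations.

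The deposited values are estimated counts per gene, which summed to 28583554 to 134882175 per library (median 44018412). Levels are CPM, counts relative to the TMM-normalized library size,, as mean ± SD over n = 3 samples. The counts of replicates 2 and 3 in variant A of SUM44 differed by less than sampling noise allows, and they were counted as 1 sample, so n = 2 there. A gene was called differentially expressed (DE) when its change exceeded 1.5-fold at an adjusted p below 0.001 in edgeR's quasi-likelihood test. All 9 genes passed the filter on low counts in every comparison, but some did so through few counts, which are given below. In bulk RNA, fewer cells that express a gene and less of its RNA per cell cannot be told apart.

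The cells carried the epithelial markers of their origin, since all 7 markers on the list averaged at least 1 CPM in every group. Of 6 hepatocyte markers, only ALB and CPS1 reached 1 CPM in any group. The summed level of the 6 lay between 4.86 CPM in an MM134 parental sample and 338 CPM in a SUM44 LTED-B sample. In 3 libraries, fibroblast markers stood apart from the other 23, in which their summed level was 0.372 to 2.76 CPM. This sum was 242 CPM in SUM44F replicate 1, with COL3A1 at 135 CPM and immune markers at 8.91 CPM against 2.01 and 2.09 CPM in the other SUM44F samples, 10.9 CPM in MM134 parental replicate 3 and 10.7 CPM in MM134 LTED-D replicate 2. The summed level of 6 immune markers also differed between the MM134 groups, at 0.378 to 0.971 CPM in parental samples, 14.1 to 15.4 CPM in LTED-A, 6.56 to 7.52 CPM in LTED-B, 3.97 to 4.64 CPM in LTED-D and 2.39 to 3.42 CPM in LTED-E. CD68, a lysosomal protein, made up most of it, with a mean of 14.4 CPM in LTED-A against 0.216 CPM in the parental group, and PTPRC, CD3E, CD14 and AIF1 stayed below 1 CPM in every MM134 group. The part of these markers and of these 3 libraries in the results was not tested. Where leaving these libraries out changed a named call of a gene outside the 9, or moved a named value by much, both values are given.

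The starts of 4 genes are shown as examples, since the accounts of SERPINA1, SERPINA3, SERPINA6 and SERPINB5 below hold large differences between variants or cell lines and their windows hold 1 or more of the motifs searched. SERPINA5 also has such differences and motifs, and its window is not shown. The sequences come from RefSeq promoter windows on GRCh38.p14, which run from 250 bases before to 50 bases after a start. Exon bases were left out. Windows were given for 8 of the 9 genes, in all 11 windows, and A2M had none. Capitals mark matches on either strand of an estrogen response element (ERE) core GGTCA, the HNF1 core GTTAAT, the AP-1 site TGANTCA or the STAT site TTCNNNGAA.
SERPINA6 (chr14:94323390-94323586, minus strand): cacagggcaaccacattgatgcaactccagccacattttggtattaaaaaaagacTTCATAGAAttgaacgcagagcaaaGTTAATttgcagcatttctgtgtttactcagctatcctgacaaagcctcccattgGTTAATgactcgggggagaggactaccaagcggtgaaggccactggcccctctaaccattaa
SERPINA1 (chr14:94390694-94390885, minus strand): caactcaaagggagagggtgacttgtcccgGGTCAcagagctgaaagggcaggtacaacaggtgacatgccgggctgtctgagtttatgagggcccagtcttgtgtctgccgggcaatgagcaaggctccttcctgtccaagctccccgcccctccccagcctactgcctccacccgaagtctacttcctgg
SERPINA3 (chr14:94612141-94612383, plus strand): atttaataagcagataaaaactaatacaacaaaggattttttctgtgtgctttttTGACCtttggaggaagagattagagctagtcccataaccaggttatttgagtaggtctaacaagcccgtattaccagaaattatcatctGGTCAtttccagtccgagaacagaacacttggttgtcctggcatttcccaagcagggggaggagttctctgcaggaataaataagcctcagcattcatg
SERPINB5 (chr18:63476708-63476957, plus strand): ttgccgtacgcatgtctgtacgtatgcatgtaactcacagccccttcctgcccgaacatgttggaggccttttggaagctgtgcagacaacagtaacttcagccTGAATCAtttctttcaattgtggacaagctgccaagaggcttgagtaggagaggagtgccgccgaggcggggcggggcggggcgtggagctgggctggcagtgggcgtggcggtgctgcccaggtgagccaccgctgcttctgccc

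The SERPINA6 stretch held 2 HNF1 cores and 1 STAT site, and the SERPINA1 stretch 1 ERE core. SERPINA3 held 2 ERE cores and SERPINB5 1 AP-1 site. The full palindromic ERE, in which 3 bases separate the ERE core from its reverse complement, was in 0 of the 11 windows and in 0.057% of 35116 windows of all genes. Single motifs were frequent in all windows, at 37.4% for the ERE core, 6.88% for the HNF1 core, 7.71% for the AP-1 site and 7.66% for the STAT site. Of the 11 windows, 7, 2, 1 and 2 held them, and nothing is read from these counts. A second window of SERPINA1, of which no bases are shown, held 2 ERE cores and 1 HNF1 core. The TATA box TATAAA was in 11.5% of all windows and in 1 of the 11, that of A2ML1. These matches are letters in a window and were not measured as binding sites.

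SERPINA1 encodes alpha-1-antitrypsin, the main plasma inhibitor of neutrophil elastase. Its gene lies on chromosome 14 (94376747 to 94390693, minus strand, hg38). The level of SERPINA1 was higher in all 4 MM134 LTED variants than in MM134 parental cells, and lower in both SUM44 variants than in SUM44F. In the 3 MM134 parental samples SERPINA1 was at 1.74, 2.10 and 1.97 CPM. Among the variants, LTED-A had 9.29, 9.32 and 9.67 CPM, LTED-B 28.0, 29.1 and 27.1 CPM, LTED-D 28.1, 28.5 and 30.3 CPM, and LTED-E 10.4, 10.1 and 10.6 CPM. No variant sample overlapped the parental samples, and LTED-B and LTED-D overlapped each other.

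The log2 fold change of SERPINA1 against MM134 parental cells was 2.27 ± 0.07 (SE) in LTED-A and 2.43 ± 0.07 in LTED-E, or 4.82-fold and 5.37-fold. In LTED-B and LTED-D it was 3.85 ± 0.06 and 3.91 ± 0.06, or 14.5-fold and 15.0-fold. The variants thus formed a lower and a higher pair, with a gap between them that was wider than the spread of samples.

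SUM44 cells started from a far higher level. SERPINA1 was at 194, 201 and 143 CPM in SUM44F and at 237, 240 and 246 CPM in SUM44PE. SUM44 LTED-A had 6.08 and 5.36 CPM, and SUM44 LTED-B had 14.8, 15.2 and 16.3 CPM. The SUM44 variants did not overlap SUM44F, and their levels lay in the range of the MM134 variants or just below it. Against SUM44F the log2 fold change was -4.98 ± 0.17 in LTED-A (31.5-fold lower) and -3.54 ± 0.13 in LTED-B (11.6-fold lower). SUM44PE was 0.42 ± 0.11 above SUM44F on the log2 scale. In the order of the 9 groups, from MM134 parental cells at 1.94 ± 0.182 CPM to SUM44PE at 241 ± 5.01 CPM, LTED-B and LTED-D of MM134 were the only neighbours whose samples overlapped.

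SERPINA6 encodes corticosteroid-binding globulin, a serpin without inhibitory activity that carries cortisol in plasma. It lies beside SERPINA1 on chromosome 14 (94304248 to 94323389, minus strand). SERPINA6 was close to background in MM134 parental cells, at 0.0857, 0.0270 and 0.227 CPM, which rest on 1 to 7 counts. MM134 LTED-A samples had 0.792, 0.947 and 1.12 CPM, LTED-B 2.53, 3.26 and 3.01 CPM, LTED-D 3.42, 4.15 and 4.29 CPM, and LTED-E 0.222, 0.148 and 0.291 CPM. LTED-A, LTED-B and LTED-D lay above the parental samples, whereas LTED-E overlapped them.

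On the log2 scale the SERPINA6 difference from MM134 parental cells was 3.09 ± 0.37 in LTED-A, 4.74 ± 0.32 in LTED-B, 5.19 ± 0.31 in LTED-D and 1.04 ± 0.49 in LTED-E. These differences depend on which parental libraries are used. Without the libraries with fibroblast markers, of which parental replicate 3 is one, they were 4.01, 5.66, 6.08 and 1.97, and without parental replicate 2 those of LTED-A, LTED-B and LTED-D were 2.59, 4.25 and 4.69. The LTED-E samples no longer overlapped the parental samples, but lay above them, once the libraries with fibroblast markers were left out.

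In SUM44F, SERPINA6 was at 5.44, 4.86 and 3.71 CPM, and in SUM44PE at 5.01, 5.34 and 4.66 CPM. SUM44 LTED-A had 0.0494 and 0.0964 CPM, from 2 and 11 counts, and LTED-B had 1.17, 1.09 and 1.24 CPM. Both variants lay below all SUM44F samples, and SUM44PE overlapped SUM44F. Log2 fold changes against SUM44F were -5.80 ± 0.31 in LTED-A and -1.99 ± 0.20 in LTED-B. Across the 9 group means, log2(CPM + 1) of SERPINA1 and SERPINA6 had a Pearson r of 0.90, and Spearman's rho over 26 samples was 0.94. These points share their libraries, their wells of 1 culture and the cell line.

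**Figure D1:**
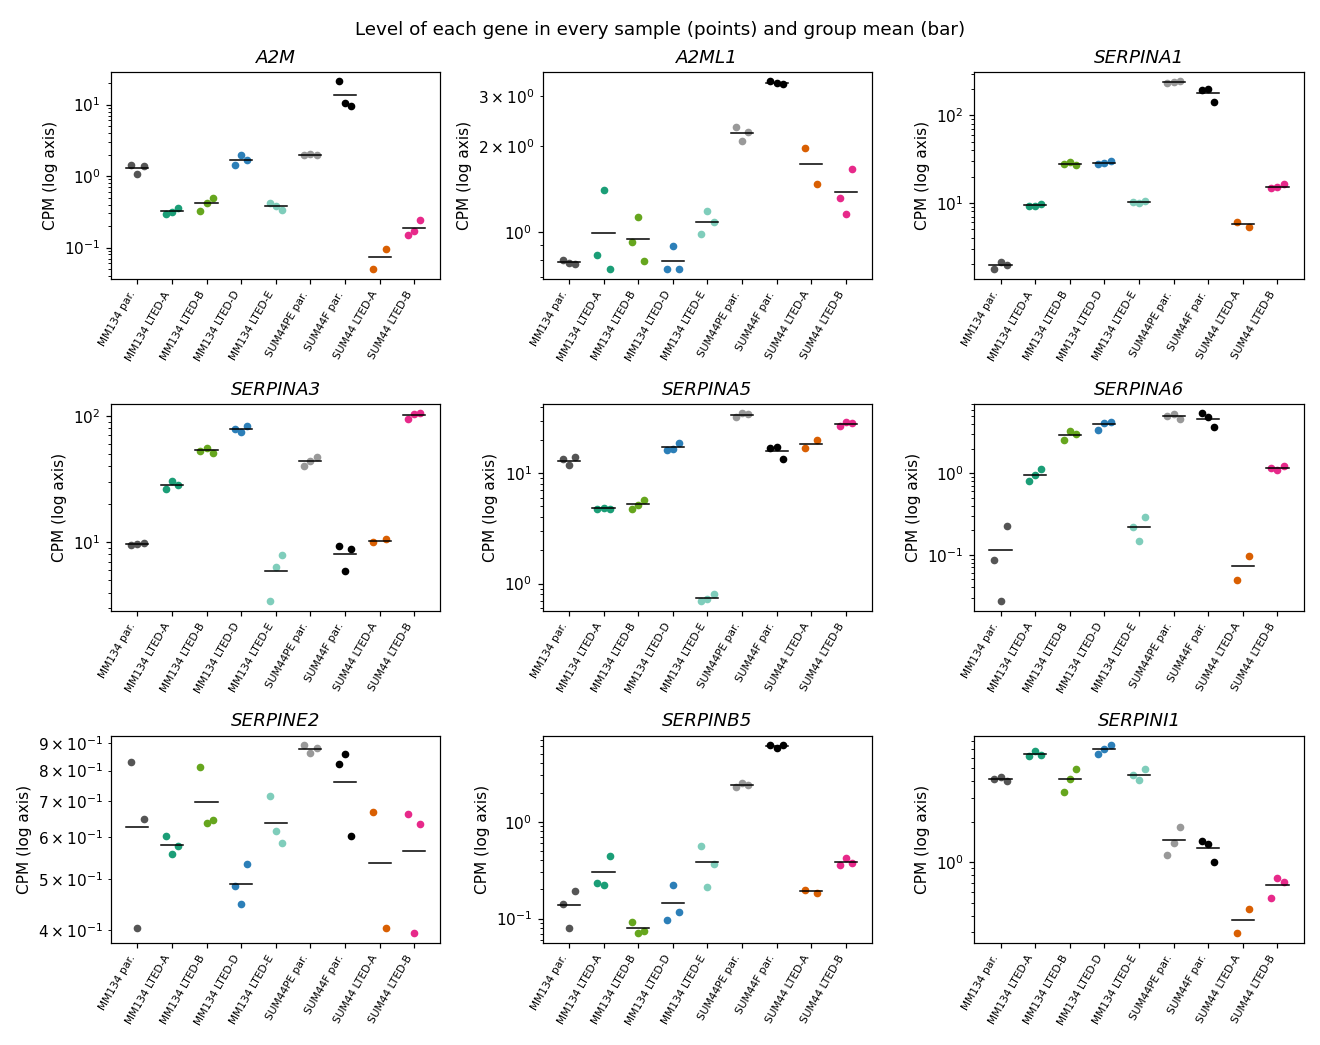
Normalized CPM of the 9 genes in every sample (log axis), by group, with points for samples and bars for group means. SERPINA1 was between 1.74 and 2.10 CPM in MM134 parental samples and between 143 and 201 CPM in SUM44F.

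**Figure D2:**
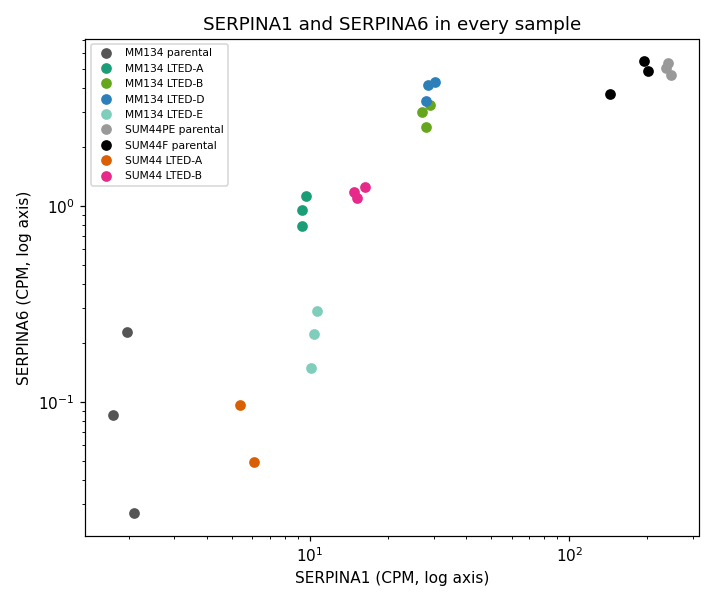
Levels of SERPINA1 and SERPINA6 in the 26 samples as normalized CPM on log axes, with a point per sample in the colour of its group. SERPINA6 mostly rose with SERPINA1 (Spearman's rho 0.94), although MM134 LTED-E held less SERPINA6 than LTED-A at about the same SERPINA1 level.

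SERPINA3 encodes alpha-1-antichymotrypsin, an acute-phase inhibitor of cathepsin G and mast cell chymase. Its gene on chromosome 14 (94612384 to 94624055, plus strand) is shared in part by a readthrough gene, ENSG00000273259 (94592058 to 94624646), which overlaps 1585 exon bases, or 31.7% of those of SERPINA3. The readthrough gene took 68.5% to 77.1% of the combined counts in the 9 groups, so the division between the 2 genes is uncertain and their sum is given below.

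Levels of SERPINA3 in MM134 parental samples were 9.46, 9.63 and 9.87 CPM. LTED-A had 26.4, 30.7 and 28.2 CPM, LTED-B 53.0, 55.7 and 51.2 CPM, LTED-D 78.7, 73.8 and 82.3 CPM, and LTED-E 3.41, 6.31 and 7.93 CPM. LTED-A, LTED-B and LTED-D lay above the parental samples, in that order and without overlap, and LTED-E lay below them. Against parental cells the log2 fold change was 1.55 ± 0.14 in LTED-A, 2.47 ± 0.14 in LTED-B, 3.03 ± 0.14 in LTED-D and -0.68 ± 0.17 in LTED-E. The last value was -0.42 without LTED-E replicate 1 and -0.95 without replicate 3.

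SUM44F had 9.35, 5.95 and 8.79 CPM of SERPINA3, close to the MM134 parental level. SUM44 LTED-A had 10.0 and 10.6 CPM, LTED-B 94.2, 104 and 105 CPM, and SUM44PE 40.0, 43.6 and 47.0 CPM. LTED-A samples lay just above those of SUM44F, LTED-B held the highest level of all groups, and SUM44PE lay between. Relative to SUM44F it changed on the log2 scale by 0.36 ± 0.16 in LTED-A, 3.65 ± 0.15 in LTED-B (12.5-fold) and 2.42 ± 0.13 in SUM44PE (5.37-fold). SERPINA3 and SERPINA1 therefore moved in opposite directions in SUM44 LTED-B, and their Pearson r over the 9 group means was 0.24.

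The sum of SERPINA3 and the readthrough gene gave the same order among the MM134 variants, with ratios to the parental mean of 3.54 in LTED-A, 6.81 in LTED-B, 9.76 in LTED-D and 0.824 in LTED-E. In SUM44 the ratios to SUM44F were 1.26 in LTED-A, 12.4 in LTED-B and 5.44 in SUM44PE. The readthrough gene on its own, which was not among the selected genes, was DE and higher in MM134 LTED-A (log2 fold change 1.92, adjusted p = 1.9e-16 by edgeR), LTED-B (2.89, adjusted p = 1.01e-18) and LTED-D (3.41, adjusted p = 1.15e-19), and in SUM44 LTED-B (3.62, adjusted p = 2.51e-08). It did not pass the thresholds in MM134 LTED-E (-0.11, adjusted p = 0.108) or SUM44 LTED-A (0.34, adjusted p = 0.109). Since it shares fragments with SERPINA3, it is no separate evidence.

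SERPINA5, the protein C inhibitor, acts on activated protein C and on several proteases of clotting and of seminal plasma. Its gene (chromosome 14, 94561442 to 94593118, plus strand) shares only 79 exon bases (2.11%) with the readthrough gene. MM134 parental samples had 13.4, 11.8 and 13.9 CPM of SERPINA5. LTED-A had 4.76, 4.88 and 4.78 CPM, LTED-B 4.76, 5.15 and 5.77 CPM, LTED-D 16.4, 16.6 and 18.8 CPM, and LTED-E 0.691, 0.720 and 0.797 CPM. LTED-A, LTED-B and LTED-E lay below all parental samples, with LTED-A and LTED-B overlapping each other, and LTED-D lay above.

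The log2 fold change of SERPINA5 was -1.44 ± 0.08 in LTED-A, -1.31 ± 0.08 in LTED-B, 0.42 ± 0.08 in LTED-D and -4.12 ± 0.11 in LTED-E, which is 17.4-fold lower. SUM44 cells varied less. SUM44F had 17.1, 17.3 and 13.5 CPM, SUM44 LTED-A 16.9 and 19.9 CPM, LTED-B 27.1, 28.9 and 28.5 CPM, and SUM44PE 32.1, 35.1 and 34.3 CPM. LTED-A overlapped SUM44F, while LTED-B and SUM44PE lay above it, by 0.82 ± 0.11 and 1.08 ± 0.10 on the log2 scale.

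The 4 serpins of clade A thus differed among themselves in the MM134 variants. MM134 LTED-E was above the parental samples for SERPINA1, overlapped them for SERPINA6 when all libraries were used, and was below them for SERPINA3 and SERPINA5. LTED-D was above the parental samples for all 4 genes.

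**Figure D3:**
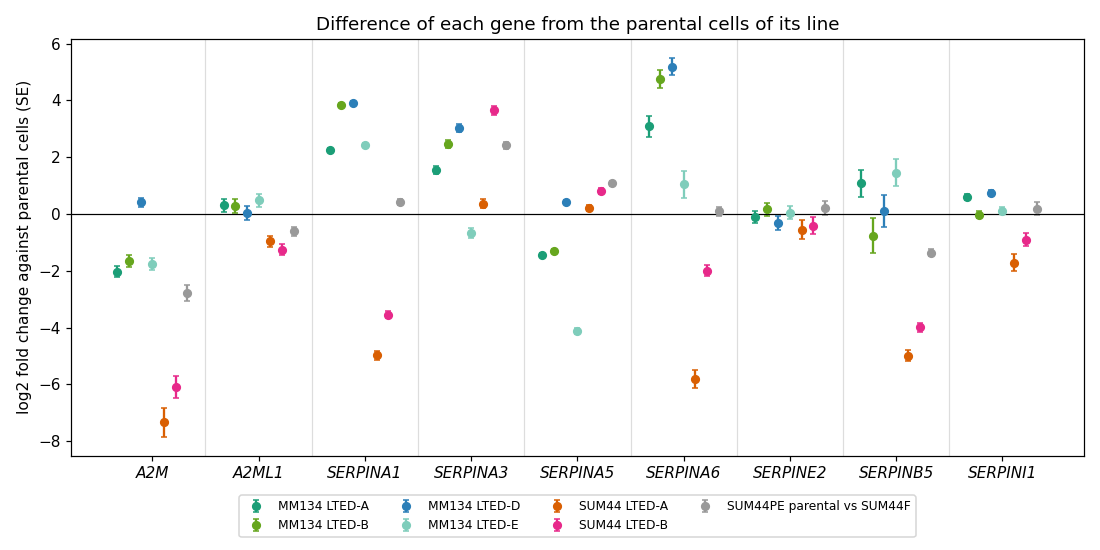
Log2 fold change of the 9 genes in the 6 LTED variants and in SUM44PE, each against its parental culture, with points for estimates and bars for the standard error. SERPINA1 was above 2 in the 4 MM134 variants and below -3 in the 2 SUM44 variants, whereas SERPINE2 stayed between -0.55 and 0.21.

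A2M, the cage-forming inhibitor, is encoded on chromosome 12 (9067664 to 9116229, minus strand). A2M was at 1.43, 1.08 and 1.39 CPM in MM134 parental samples. Of the variants, LTED-A had 0.291, 0.316 and 0.353 CPM, LTED-B 0.325, 0.425 and 0.497 CPM, LTED-D 1.45, 1.96 and 1.69 CPM, and LTED-E 0.420, 0.381 and 0.330 CPM. A2M was lower than in all parental samples in LTED-A, LTED-B and LTED-E, which overlapped one another, and slightly above them in LTED-D. The log2 fold change was -2.03 ± 0.20 in LTED-A (4.09-fold lower), -1.64 ± 0.21 in LTED-B (3.11-fold lower), 0.41 ± 0.17 in LTED-D and -1.77 ± 0.21 in LTED-E (3.42-fold lower).

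SUM44F held the highest level of A2M, at 21.2, 10.4 and 9.53 CPM. SUM44 LTED-A had 0.0494 and 0.0964 CPM, from 2 and 11 counts, LTED-B had 0.151, 0.173 and 0.240 CPM, from 5 to 22 counts, and SUM44PE had 1.98, 2.05 and 1.96 CPM. Each of these 3 groups lay below all SUM44F samples. SUM44F replicate 1, the library with 242 CPM of fibroblast markers, had about as much A2M as both other SUM44F samples together.

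The log2 fold change of A2M was -7.34 ± 0.50 in SUM44 LTED-A, -6.08 ± 0.39 in LTED-B and -2.79 ± 0.28 in SUM44PE. Without SUM44F replicate 1 the mean of SUM44F fell from 13.7 to 9.98 CPM, and these values were -6.89 ± 0.29, -5.63 ± 0.22 and -2.32 ± 0.15. The antisense gene A2M-AS1 overlaps the span of A2M. Overlap of their exons was not determined, and the strand setting of the quantification is not given in the sources used here. How well reads of the pair were separated is therefore uncertain. A2M-AS1 changed less than A2M, with log2 fold changes of -1.29 in SUM44 LTED-A and -0.94 in LTED-B.

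A2ML1 is a macroglobulin of the same family, known from stratified epithelia, and lies near A2M (chromosome 12, 8822621 to 8887001, plus strand). It was low in MM134, with all samples between 0.742 and 1.41 CPM, and log2 fold changes between 0.03 in LTED-D and 0.48 ± 0.23 in LTED-E. In SUM44 its mean was 3.34 ± 0.0416 CPM in SUM44F and 2.22 ± 0.122 CPM in SUM44PE. SUM44 LTED-A had 1.73 ± 0.350 CPM of A2ML1, and LTED-B had 1.39 ± 0.260 CPM. The log2 fold change against SUM44F was -0.96 ± 0.20 in LTED-A, -1.25 ± 0.18 in LTED-B and -0.60 ± 0.16 in SUM44PE. A2ML1 was thus lower in both SUM44 variants, as A2M was, but by a smaller amount.

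SERPINB5, or maspin, is an intracellular serpin without known inhibitory activity that myoepithelial cells express and that was described as a tumor suppressor of the breast (chromosome 18, 63476958 to 63505085, plus strand). In SUM44F it was at 6.14, 5.82 and 6.20 CPM and in SUM44PE at 2.28, 2.49 and 2.37 CPM. SUM44 LTED-A had 0.198 and 0.184 CPM, and LTED-B had 0.361, 0.420 and 0.371 CPM. The 4 SUM44 groups did not overlap each other, and both variants lay far below SUM44F. Against SUM44F, SERPINB5 had a log2 fold change of -4.99 ± 0.20 in LTED-A (31.7-fold lower), -3.98 ± 0.16 in LTED-B (15.7-fold lower) and -1.36 ± 0.12 in SUM44PE (2.56-fold lower). MM134 cells hardly expressed SERPINB5, with group means of 0.0794 to 0.383 CPM and 3 to 6 counts in the parental samples. Its log2 fold changes there, between -0.76 in LTED-B and 1.46 ± 0.47 in LTED-E, rest on few counts.

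SERPINI1, or neuroserpin, inhibits tissue plasminogen activator and is best known from neurons (chromosome 3, 167735243 to 167825569, plus strand). Its mean was 4.20 ± 0.147 CPM in MM134 parental cells, 6.43 ± 0.316 CPM in LTED-A, 4.15 ± 0.827 CPM in LTED-B, 6.96 ± 0.545 CPM in LTED-D and 4.50 ± 0.425 CPM in LTED-E. The log2 fold change was 0.61 ± 0.11 in LTED-A and 0.74 ± 0.12 in LTED-D, and was -0.02 in LTED-B and 0.11 in LTED-E. SUM44F had 1.28 ± 0.233 CPM, SUM44PE 1.46 ± 0.354 CPM, LTED-A 0.372 ± 0.106 CPM and LTED-B 0.672 ± 0.116 CPM. SERPINI1 was lower than in SUM44F, with log2 fold changes of -1.71 ± 0.29 in SUM44 LTED-A and -0.90 ± 0.24 in LTED-B. Without the libraries with fibroblast markers its log2 fold change was 0.58 ± 0.13 in MM134 LTED-A, which is under 1.5-fold, and -1.60 ± 0.31 in SUM44 LTED-A.

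SERPINE2, protease nexin-1, inhibits thrombin and the plasminogen activators (chromosome 2, 223975045 to 224039318, minus strand). It was the most even of the 9 genes, with group means of 0.489 to 0.880 CPM and log2 fold changes between -0.55 and 0.21. Its samples overlapped those of the parental culture in all 6 LTED variants, and lay above those of SUM44F in SUM44PE.

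Counted over the 9 genes, 4 passed the DE thresholds as higher and 2 as lower in MM134 LTED-A, where 20.3% of all genes tested passed. In LTED-B 3 were higher and 2 lower (15.9% of all genes), in LTED-D 4 were higher and 0 lower (17.6%), and in LTED-E 1 was higher and 2 lower (19.0%). In SUM44 LTED-A 0 were higher and 5 lower (13.7%), in LTED-B 2 were higher and 5 lower (17.3%), and in SUM44PE 2 were higher and 2 lower (5.57%). The genes were chosen on these contrasts, so that nothing is read from these counts. The median log2 fold change of the 9 genes was 0.61, 0.17, 0.42 and 0.11 in the MM134 variants A, B, D and E, and -1.71 and -1.25 in the SUM44 variants A and B. The median of all genes tested lay between -0.09 and 0.02 in these 6 comparisons. The MM134 comparisons share the parental samples of MM134, and the SUM44 comparisons those of SUM44F.

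Levels of different genes were compared as CPM per kb of exon. By this scale SERPINA1 was the highest of the 9 genes in SUM44PE (49.1 CPM per kb) and SUM44F (36.6), whereas SERPINA3 was the highest in SUM44 LTED-B (20.2) and SERPINA5 in SUM44 LTED-A (4.91). In MM134, SERPINA5 led in parental cells (3.47 CPM per kb), and SERPINA3 led in LTED-A (5.69), LTED-B (10.7) and LTED-D (15.7). SERPINA1 and SERPINI1 shared the highest level in LTED-E, at 2.11 CPM per kb each. SERPINA3 is ranked here without the readthrough gene. When both were summed over their 6482 joint exon bases, the sum was also above every other of the 9 genes in MM134 parental cells (4.74 CPM per kb), MM134 LTED-E (3.90) and SUM44 LTED-A (5.23), and stayed below SERPINA1 in SUM44F (4.14) and SUM44PE (22.5). With the length of the longest transcript in place of all exon bases, the highest gene was the same in 9 of 9 groups, and the whole order in 4 of 9. SERPINE2 had 0.0546 to 0.0983 CPM per kb.

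The neighbours of the clade A serpins were tested, since SERPINA6, SERPINA1, SERPINA5 and SERPINA3 lie within 320 kb on chromosome 14. PPP4R4, a regulatory subunit of protein phosphatase 4 that lies 24.5 kb from SERPINA6, was DE and higher in MM134 LTED-A (log2 fold change 1.22, adjusted p = 2.72e-06 by edgeR), LTED-B (1.77, adjusted p = 2.27e-08) and LTED-D (2.08, adjusted p = 1.91e-09). In LTED-E it had a log2 fold change of -0.64 (adjusted p = 0.0221). It was DE and lower in SUM44 LTED-A (-2.49, adjusted p = 3.8e-06) and LTED-B (-1.43, adjusted p = 3.79e-05). PPP4R4 therefore showed the same signs as SERPINA6 in all LTED variants but MM134 LTED-E, where SERPINA6 overlapped the parental samples.

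IFI27L2, an interferon-inducible gene of the same region, was DE and higher in MM134 LTED-B (1.44, adjusted p = 1.72e-07 by edgeR) and LTED-D (2.28, adjusted p = 1.39e-10), and lower in SUM44 LTED-A (-3.26, adjusted p = 3.36e-06) and LTED-B (-1.65, adjusted p = 5.66e-05). SERPINA10, which encodes the protein Z-dependent protease inhibitor and lies nearer to SERPINA6 than PPP4R4 does, did not pass the thresholds in any comparison, with log2 fold changes from -0.46 to 0.21. SERPINA11 was DE in MM134 LTED-D (2.06, adjusted p = 9.62e-06) and SUM44PE (2.47, adjusted p = 1.59e-06). The homeobox gene GSC was DE and lower in MM134 LTED-A (-1.13, adjusted p = 3.31e-05), and higher in LTED-D (1.11, adjusted p = 1.22e-05), SUM44 LTED-A (1.03, adjusted p = 0.000537) and SUM44 LTED-B (1.47, adjusted p = 1.84e-05). Without the 3 libraries with fibroblast markers, GSC was no longer DE in SUM44 LTED-A (1.01, adjusted p = 0.00184). IFI27, an interferon-induced gene, was DE and lower in SUM44 LTED-A (-2.25, adjusted p = 0.000105) and LTED-B (-1.90, adjusted p = 9.51e-05) and not DE in MM134. DDX24 and IFI27L1, at one end of the region, were not DE in any LTED variant.

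**Figure D4:**
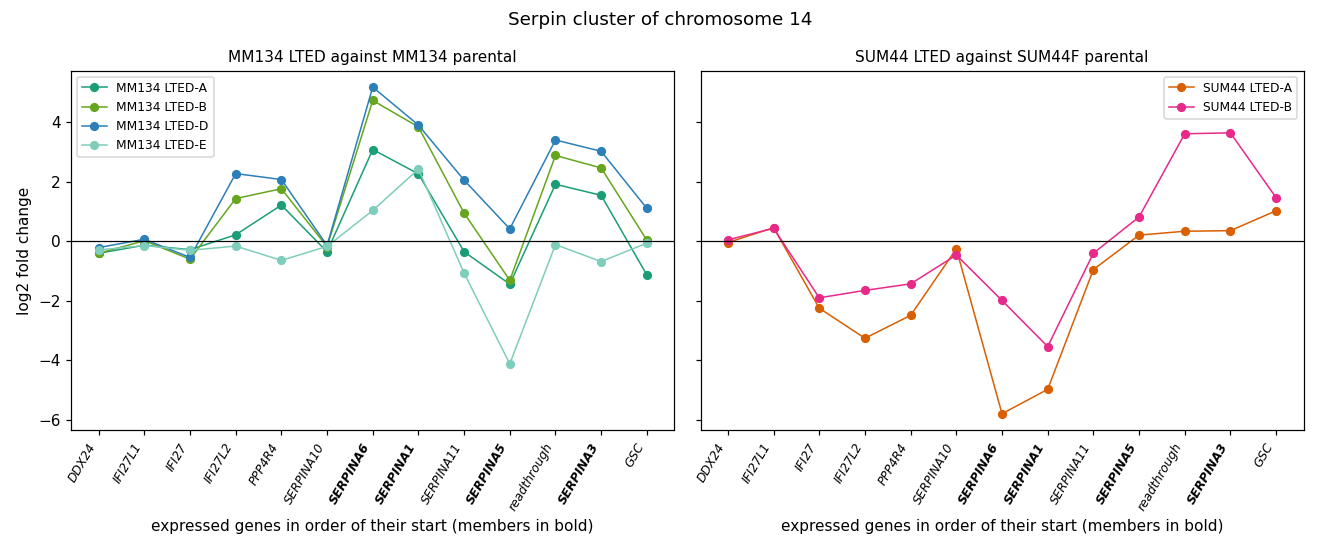
Log2 fold change against the parental culture for expressed genes of the SERPINA region of chromosome 14, in their order along the chromosome, for the 4 MM134 and 2 SUM44 LTED variants. SERPINA6 and SERPINA1 were above 0 in MM134 and below 0 in SUM44, whereas SERPINA10 beside them lay between -0.46 and -0.14.

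Around A2M and A2ML1, A2M-AS1 was DE and lower in SUM44 LTED-A (-1.29, adjusted p = 0.000542 by edgeR), a call that was lost without the 3 libraries with fibroblast markers (-1.26, adjusted p = 0.00131). PHC1 was DE and lower in MM134 LTED-E (-0.86, adjusted p = 8.88e-12), and the pseudogene DDX12B was lower in MM134 LTED-A (-0.72, adjusted p = 4.9e-09) and higher in SUM44 LTED-B (0.81, adjusted p = 3.4e-05). RIMKLB, which lies 39.5 kb from A2ML1 and encodes an enzyme of N-acetylaspartylglutamate synthesis, was DE and lower in all 6 LTED variants, with -0.72 to -1.70 in MM134 and -1.15 (adjusted p = 7.42e-06) and -1.14 (adjusted p = 2.36e-06) in SUM44 LTED-A and LTED-B. BCL2, the inhibitor of apoptosis near SERPINB5, was DE and lower in the 4 MM134 variants, with log2 fold changes of -4.24, -3.37, -2.52 and -5.95 in A, B, D and E. In SUM44 it had -0.06 (adjusted p = 0.526) in LTED-A and -0.42 in LTED-B, where SERPINB5 was lower by far more. VPS4B and KDSR near SERPINB5 did not pass the thresholds in any LTED variant. Near SERPINE2, AP1S3 was DE and lower in SUM44 LTED-A (-0.90, adjusted p = 0.000241) and LTED-B (-0.64, adjusted p = 0.000794), the latter call being lost without the libraries with fibroblast markers (-0.68, adjusted p = 0.00154). Near SERPINI1, GOLIM4 was DE and higher in MM134 LTED-D (1.06) and LTED-E (0.63), and PDCD10 was not DE.

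Among 19604 genes with a group mean of at least 1 CPM, those with a pattern most like each of the 9 genes were found by Pearson r of log2(CPM + 1) over the 9 group means. For SERPINA1 they were RALGPS2-AS1 (r = 0.954) and GPR22 (0.945), and for SERPINA6 FCGRT (0.972) and CREBL2 (0.968). For SERPINA3 they were the readthrough gene (0.992) and CAPNS1 (0.883), and for SERPINA5 RHOBTB1 (0.955) and TMEM219 (0.949). For A2M they were COL3A1 (0.989), a collagen gene, and GABRP (0.975). COL3A1 was at 135 CPM in SUM44F replicate 1 and at 0.703 and 0.467 CPM in the other SUM44F samples, and without the libraries with fibroblast markers r fell to 0.55 for COL3A1 and 0.718 for GABRP. For the other 14 genes named here r was between 0.884 and 0.993 without them. SLC19A3 (0.991) and ENSG00000272030 (0.988) were nearest to A2ML1, MYO3B (0.998) and LINC03004 (0.993) to SERPINB5, and CDIP1 (0.989) and ENSG00000213062 (0.985) to SERPINI1. SERPINE2 did not reach 1 CPM in any group and was left out. Of these 16 genes, 4 were also among the nearest by Spearman's rho over 26 samples, so the choice depended on the measure.

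The remaining serpins, 29 in all, were tested where expressed. In MM134, 5 of 16 were DE in LTED-A (1 higher, 4 lower), 2 in LTED-B (1 higher, 1 lower), 5 in LTED-D (4 higher, 1 lower) and 1 in LTED-E (lower), or 31.2%, 12.5%, 31.2% and 6.25%, beside 20.3%, 15.9%, 17.6% and 19.0% of all genes, with medians of -0.13, 0.14, 0.27 and 0.01. In SUM44, 6 of 15 were DE in LTED-A, all lower, and 5 of 15 in LTED-B (1 higher, 4 lower), or 40.0% and 33.3% beside 13.7% and 17.3% of all genes, with medians of -0.95 and -0.67. SERPINB1, an inhibitor of neutrophil proteases, was lower in SUM44 LTED-A (-1.45, adjusted p = 8.09e-07 by edgeR) and LTED-B (-1.96, adjusted p = 2.81e-08), as was SERPINF1, which encodes pigment epithelium-derived factor (-1.68, adjusted p = 0.000168, and -1.71, adjusted p = 4.55e-05).

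Of the relatives of A2M, 6 were tested. In the MM134 variants A, B, D and E, 5, 4, 3 and 5 were DE, beside 20.3%, 15.9%, 17.6% and 19.0% of all genes. In the SUM44 variants A and B, 6 and 4 were DE, beside 13.7% and 17.3% of all genes. These are 6 genes only, so nothing particular to the family is read from the counts. C5, the fifth complement component, was higher in MM134 (log2 fold change 2.75, 2.48, 2.61 and 2.04) and in SUM44 LTED-A (0.61, adjusted p = 0.000398 by edgeR) and LTED-B (0.94, adjusted p = 6.79e-06), with the call in SUM44 LTED-A lost without the libraries with fibroblast markers (0.57, adjusted p = 0.00186). C3, the central component of complement, was higher in MM134 (4.38, 1.88, 2.25 and 2.70) and lower in SUM44 LTED-A (-2.57, adjusted p = 2.38e-06). CD109, a membrane-anchored relative of A2M, was lower in the MM134 variants (-3.18, -2.21, -4.74 and -0.81) and higher in SUM44 LTED-A (0.84). C4A, C4B and CPAMD8 were lower in both SUM44 variants. C4A and C4B are near-identical copies, so the counts of each are uncertain.

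Proteases that serpins of these families can act on were also expressed. Of 22 serine proteases tested in MM134, 11, 9, 10 and 9 were DE in variants A, B, D and E. Among these, 8, 7, 7 and 7 were higher. Of all genes, 20.3%, 15.9%, 17.6% and 19.0% were DE in these variants. In SUM44, 5 of 23 were DE in each variant, beside 13.7% and 17.3% of all genes in LTED-A and LTED-B. PROC, which encodes protein C, the zymogen of a target of SERPINA5, rose from 0.443 CPM in MM134 parental cells to 48.4, 55.6, 92.4 and 59.2 CPM in variants A, B, D and E. PRSS23, a secreted serine protease, was higher in the MM134 variants (1.11, 2.71, 3.41 and 0.99). F7, coagulation factor VII, was higher by 0.84 to 1.66 in MM134 and lower in SUM44 (-1.02 and -1.11), and the membrane protease TMPRSS2 was higher in the 4 MM134 variants (1.41, 0.70, 2.39 and 0.73) and in both SUM44 variants (2.47 in LTED-B). SERPINA5 was lower in 3 of the MM134 variants in which PROC rose and higher in LTED-D.

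Protease inhibitors of other families changed too, with 9, 5, 7 and 10 of 19 DE in the MM134 variants and 7 and 8 of 22 in the SUM44 variants. In MM134 these were 47.4%, 26.3%, 36.8% and 52.6%, beside 20.3%, 15.9%, 17.6% and 19.0% of all genes. In SUM44 they were 31.8% and 36.4%, beside 13.7% and 17.3%. AMBP, the precursor of alpha-1-microglobulin and of the inhibitor bikunin, rose from 9.46 CPM in MM134 parental cells to 1960 CPM in LTED-A, 1110 CPM in LTED-B, 835 CPM in LTED-D and 603 CPM in LTED-E. TIMP3, an inhibitor of metalloproteases, rose from 30.6 CPM to 255, 153, 104 and 210 CPM in MM134. In SUM44, TIMP3 was not DE (log2 fold change 0.88 in LTED-A and 0.63 in LTED-B). TIMP3 was at 38.9 CPM in SUM44F replicate 1, the library with the most fibroblast markers, and at 0.371 and 0.501 CPM in the other SUM44F samples. Without the libraries with fibroblast markers its log2 fold change was 5.74 (adjusted p = 5.6e-09 by edgeR) and 5.48 (adjusted p = 2.72e-09). TIMP1 was lower in MM134, from 11.7 CPM to 0.0257, 0.265, 0.0281 and 0.972 CPM, and in SUM44, from 64.4 CPM to 9.69 and 13.8 CPM (-2.73, adjusted p = 2.39e-07, and -2.23, adjusted p = 1.84e-07). PI3, or elafin, an inhibitor of neutrophil elastase as SERPINA1 is, fell from 6.88 CPM in SUM44F to 0.00876 and 0.0483 CPM in LTED-A and LTED-B.

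Complexes of serpins or A2M with proteases are taken up by endocytic receptors. LRP2, or megalin, was DE and lower in MM134 LTED-A, LTED-D and LTED-E (-1.19, -1.18 and -2.25), had -0.56 in LTED-B, and was higher in SUM44 LTED-A (2.58, adjusted p = 1.32e-08 by edgeR) and LTED-B (3.04, adjusted p = 1.91e-09). LRP1, the main receptor for A2M complexes, was DE and lower in MM134 LTED-B, LTED-D and LTED-E.

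SERPINA1 and SERPINA3 belong to the acute-phase proteins. Of 14 others tested in MM134, 8, 8, 6 and 6 were DE in variants A, B, D and E, with all these calls higher. These were 57.1%, 57.1%, 42.9% and 42.9%, beside 20.3%, 15.9%, 17.6% and 19.0% of all genes. The medians were 2.12, 0.71, 0.69 and 0.11. The list was not split by whether a protein rises or falls in the acute-phase response. It includes ALB, which is among the calls in LTED-A, LTED-B and LTED-D. In SUM44, 1 of 15 was higher and 7 were lower in LTED-A (median -1.38), and 2 were higher and 3 lower in LTED-B (median -0.40). In all, 53.3% and 33.3% were DE there, beside 13.7% and 17.3% of all genes. Several of these genes are in pathway lists that the study derived from these samples, so that their direction is no independent evidence. LCN2, which encodes a siderophore-binding protein, rose from 0.0306 CPM in MM134 parental cells to 2.54, 0.420, 0.346 and 2.48 CPM in the variants, and fell from 83.9 CPM in SUM44F to 1.54 and 2.66 CPM (-5.72, adjusted p = 2.59e-09 by edgeR, and -4.98, adjusted p = 6.69e-10). SAA1 rose from 0.0216 CPM to 28.3, 1.15, 0.948 and 11.9 CPM in MM134, and ORM1, an acid glycoprotein, from 0.302 CPM to 13.4, 2.17, 12.7 and 10.8 CPM. Without MM134 parental replicate 3, one of the libraries with fibroblast markers, the parental mean of SAA1 was 0 and that of LCN2 was 0.0135 CPM, and without MM134 LTED-D replicate 2 that of TIMP1 in LTED-D was 0, so folds against these low levels are not given. SAA1 and ORM1 each have a near-identical copy, so their counts are uncertain. ALB, albumin, rose from 35.5 CPM in SUM44F to 297 and 329 CPM (3.07, adjusted p = 1.33e-08, and 3.21, adjusted p = 4.53e-09), in the same SUM44 variants in which SERPINA1 was lower. In MM134, ALB rose from 0.766 CPM in parental cells to 9.83, 23.5 and 104 CPM in LTED-A, LTED-B and LTED-D (log2 fold change 3.67, 4.94 and 7.09). In MM134 LTED-E it was at 0.789 CPM (0.09) and not DE.

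Over all 141 genes of these lists, 42, 31, 35 and 36 of 88 tested were DE in the MM134 variants A, B, D and E, or 47.7%, 35.2%, 39.8% and 40.9%, beside 15.9% to 20.3% of all genes. In SUM44, 38 and 30 of 93 were DE (40.9% and 32.3%), beside 13.7% and 17.3% of all genes, and in SUM44PE 20 of 97 (20.6%), beside 5.57%. The lists were written with earlier results of these data known, so nothing particular to them is read from these shares.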

How the data were processed

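RNA-Seq of 27 libraries on an Illumina HiSeq 2000 was analysed. According to the submitters' processing notes, the authors quantified genes with Salmon 0.6.0 on hg38 (Ensembl release 82) and deposited estimated counts, not normalized for depth or length. Trimming and the strand setting are not given in the sources used here. Counts were rounded to whole numbers, and library totals were 28583554 to 134882175. The 3 most abundant genes took 7.33% to 15.9% of a library. Of 60619 Ensembl IDs, 56434 had a GENCODE v44 symbol.

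Replicates 2 and 3 of SUM44 LTED-A were joined, since their chi-square per degree of freedom was 0.312, against 2.35 to 58.3 in the other 26 replicate pairs. After filterByExpr and TMM normalization, genes were tested with edgeR 4.0.16 (two-sided quasi-likelihood test, Benjamini-Hochberg adjustment over all genes) in R 4.3.3, with 1 fit for MM134, 1 for SUM44F and its variants, and 1 that added SUM44PE. The procedure was tested on simulated data. The quasi-likelihood test gives no standard errors. Those printed were derived as the absolute log2 fold change divided by the square root of its F statistic, and are approximate.

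The 9 genes and all lists were chosen with earlier results of these data known. From each list the text names at most 3 genes per cell line and direction, by median log2 fold change, among genes DE the same way in at least 3 MM134 variants or both SUM44 variants with a group mean of at least 1 CPM. For some of these genes the other cell line is given too. Of expressed neighbours within 250 kb, mainly those DE in an LTED variant are named. Same-numbered replicates did not pair, with correlations of their deviations of -0.07 to 0.05 in MM134 (30 pairs) and -0.10 to 0.15 in SUM44 (15 pairs).

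Alternatives were DESeq2 1.42.0, other filters, size factors and thresholds, a replicate block, levels without TMM and each library left out. Leaving out the 3 libraries with fibroblast markers was added after seeing the data. Tables were made in pandas 2.3.3 with numpy 2.4.6. Plots used matplotlib 3.10.9. Results for some single genes of the lists are not reported here.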

Additional observations from a re-analysis of the deposited data

Results flagged for a closer look

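SERPINA1 was above the parental samples in every sample of the 4 MM134 variants and below them in every sample of both SUM44 variants. Its mean log2 fold change was 3.12 in MM134 and -4.26 in SUM44, a difference of 7.38 that was not tested, since SERPINA1 was selected on these values. Within MM134, 3 genes lay above the parental samples in some variants and below them in others, without overlap, although the smaller of the opposing differences did not pass the DE thresholds in any of the 3. A2M had log2 fold changes from -2.03 in LTED-A to 0.41 in LTED-D, a range of 2.44. SERPINA3 ranged from -0.68 in LTED-E to 3.03 in LTED-D, which is 3.71 apart. The division of its counts with the readthrough gene is uncertain. The sum of both had a ratio to the parental mean of 0.824 in LTED-E, still below all parental samples, and of 9.76 in LTED-D. SERPINA5 ranged from -4.12 in LTED-E to 0.42 in LTED-D, which is 4.54 apart. These differences between variants were not tested either, and the variants share the parental samples.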

How the results depend on the processing

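The 63 differences of the 9 genes were recomputed in 787 alternative settings. They were judged against a spread between replicates that was derived from their standard errors and sample sizes, not measured from the wells. Of the settings, 764 moved a difference by less than this spread and 23 by more. The direction of a difference that had passed the thresholds was turned by 0 of them. Many settings leave out a single library and keep most samples, so small shifts were likely by design and the tally is a weak check. It does not count differences that no longer passed the thresholds. Most of the 23 concern SERPINA6, which rests on few counts in MM134 parental cells and SUM44 LTED-A. The difference of A2M in SUM44PE moved from -2.79 to -2.32 without SUM44F replicate 1. Of 81 levels, 11 moved by more than their SD without TMM. DE genes of the lists in SUM44 LTED-B numbered 51 with an adjusted p under 0.05 in place of 30, and in SUM44PE 31 in place of 20. Leaving out 1 sample at a time gave the ranges 40 to 41 (42 with all samples), 29 to 32 (31), 30 to 36 (35) and 35 to 36 (36) for the MM134 variants A, B, D and E. For the SUM44 variants A and B they were 26 to 36 (38) and 27 to 32 (30), and for SUM44PE 17 to 22 (20). Where SUM44 LTED-A was left with 1 sample, that sample was assumed to vary like the other groups. With a replicate block the counts were 42, 31, 34 and 36 in MM134 and 30, 29 and 20 in SUM44 LTED-A, LTED-B and SUM44PE, with DESeq2 40, 31, 32, 36, 39, 34 and 21, and without the libraries with fibroblast markers 40, 30, 34, 36, 35, 31 and 22. At the lowest levels, such as SERPINA6 in MM134 parental cells, depth limits the precision.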
